A study of Mus musculus with 78 samples.

Results

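The integrated stress response was followed through 10 genes, Atf4, Atf5, Atf3, Ddit3, Trib3, Chac1, Sesn2, Asns, Slc3a2 and Slc7a11, in mouse embryonic stem cells (mESCs) that lost the transcription factor ZFP143. The genes were taken by name from 3 count tables of 55401 genes, and all 10 had enough reads to be tested in each. The cells were an E14Tg2A line of strain 129/Ola in which the endogenous Zfp143 gene carries an FKBP degron with HA tags and GFP, so that the degrader dTAG-V1 removes the protein. All groups, the DMSO controls included, carried this tagged allele from homozygous knock-in clones, and which clone gave which library is not given in the sources used here.

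Nascent transcripts were measured by TT-seq, in which cells take up the uridine analog 4-thiouridine (2 mM for 10 min) so that only RNA made in that interval is sequenced, after DMSO or after 500 nM dTAG-V1 for 2, 6 or 24 h. Steady-state mRNA was measured by RNA-seq after DMSO or dTAG-V1 for 24, 48 or 72 h. In a separate RNA-seq experiment, cells received DMSO or dTAG-V1 for 24 h in stem cell medium (before RA), or the same 24 h followed by 24 h in differentiation medium with retinoic acid (RA) and continued DMSO or dTAG-V1 (after RA). The cells after RA had thus been treated for 48 h and had also changed medium, and RA, medium and treatment time cannot be told apart in that comparison. Each group held 2 libraries, biological replicates per the study's methods, with 9721568 to 16532077 counts per library in TT-seq, 10261851 to 15316700 in the RNA-seq time course and 13890761 to 27089033 in the RA experiment.

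The integrated stress response is a shared pathway in which kinases that sense amino acid shortage, heme shortage, misfolded protein in the endoplasmic reticulum (ER) or double-stranded RNA phosphorylate the translation factor eIF2. General translation falls, while upstream open reading frames let ribosomes translate the Atf4 mRNA more, so that ATF4 protein can rise without more Atf4 mRNA. ATF4, with partners such as C/EBP proteins and CHOP (encoded by Ddit3), binds C/EBP-ATF response elements and drives genes of amino acid uptake, amino acid synthesis, redox balance and cell death. Protein was not measured in the data used here, so the results below concern RNA only.

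Of the promoters of the 10 genes, 5 held the core of a C/EBP-ATF response element, TGATGNAA, read on either strand from 250 bases before to 50 bases after a RefSeq start (GRCm38.p6). Among all 32851 RefSeq promoters of that length 3.97% held it. The matches follow, on the strand of each gene with the core in capitals, as the best known sequence through which ATF4 acts, and the windows in Trib3 and Asns are kept to 30 bases because they reach into annotated exons.
Slc7a11, chr3:50443623-50443709, minus strand, between genes, 2 cores beginning at -66 and -47: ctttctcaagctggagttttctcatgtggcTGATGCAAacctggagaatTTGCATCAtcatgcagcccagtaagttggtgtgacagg
Chac1, chr2:119351019-119351086, plus strand, between genes, core beginning at -193: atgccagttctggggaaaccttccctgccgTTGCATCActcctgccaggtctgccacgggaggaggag
Atf3, chr1:191183406-191183473, minus strand, in an intron of the longest Atf3 model and before an internal start, core beginning at -110: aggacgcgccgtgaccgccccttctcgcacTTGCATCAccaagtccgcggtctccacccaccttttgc
Trib3, chr2:152344028-152344057, minus strand, core beginning at base 15 counted from the RefSeq start, before the GENCODE start of the gene: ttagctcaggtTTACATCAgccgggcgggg
Asns, chr6:7693214-7693243, minus strand, exonic in the GENCODE model, core beginning at -23 from the RefSeq start: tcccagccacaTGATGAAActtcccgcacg
Atf4, Atf5, Ddit3, Sesn2 and Slc3a2 had no match of these letters in the window searched. For Slc3a2 that window (chr19:8713848-8714147, minus strand) lay at an internal start, inside the gene. The promoter at the start used below for its ZFP143 peak (8723369) was not searched. A match here is a description of the sequence, and no binding of ATF4 was measured.

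The genes also differed in whether ZFP143 itself was found at their promoters in cells given DMSO. ChIP-seq against the HA tag, with 1 library and no replicate, gave a ZFP143 peak at 4 of the 10 promoters, counting peaks that reached the stretch from 2000 bp before to 1000 bp after a start with their centre within 2000 bp. Of the 15619 genes tested in TT-seq that were protein-coding or of the long noncoding kinds named in the study's methods, 14.8% had such a peak. The peak at Slc3a2 (chr19:8723182-8723663) had its centre 54 bp before the start with a fold enrichment of 83.8, and that centre lay 52 bp from the start of Snhg1, a noncoding gene on the other strand. The peak at Sesn2 (chr4:132510396-132510837) was centered 116 bp before the start with an enrichment of 15.0.

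The other peaks were farther from the member and nearer to another gene. The peak upstream of Ddit3 (chr10:127288697-127289183, enrichment 25.0) was centered 1.83 kb before the Ddit3 start and 50 bp from that of Mbd6, and the peak upstream of Trib3 (chr2:152345290-152345741, enrichment 24.4) was 1484 bp before the Trib3 start and 154 bp from that of the noncoding gene Gm14164. With the centre required within 1000 bp, only Sesn2 and Slc3a2 of the 10 kept a peak, a share near the 14.3% of the same 15619 genes. For Atf4, Atf5, Atf3, Chac1, Slc7a11 and Asns the nearest peak was 53.4 to 1099 kb away.

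None of the 4 peaks held ACTACAA, the core letters of a known ZFP143 element, which 20.0% of all 3189 peaks held on either strand. The paper found its longer ZFP143 motifs, SBS1 and SBS2, in most of its ZFP143 peaks. Those motifs were not searched here, so a peak without these exact letters may still hold a ZFP143 element. In the RefSeq promoter windows ACTACAA was present in 2 of the 10 genes, beginning at -158 in Trib3 and at -250 in Asns, and in 3.24% of all promoters. The window of Slc3a2 was again the internal one. The shorter ACTACA was in 41.3% of all peaks and in the peaks at Trib3, Sesn2 and Slc3a2. It is shown in capitals for the pair of peaks that lay at the members' own starts, on the plus strand of the genome, where it reads as its reverse complement.
Sesn2, 146 bp before the start: aactctgggagcTGTAGTtggcctcgcaca
Slc3a2, 163 bp before the start: gtctttatgtgcTGTAGTtttcactttgtt

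In cells treated with DMSO, the mRNA levels per kilobase of exon spanned a wide range. Asns, which makes asparagine, stood at 368 CPM (read counts scaled to a common library total) per kilobase, followed by Atf4 at 204, Slc3a2 at 128, Sesn2 at 73.1 and Trib3 at 39.7. Atf5 at 22.9 and Chac1 at 20.8 came next, with libraries of 24.6 and 21.2 for Atf5 and 20.6 and 21.0 for Chac1 that lay close enough for the order of these neighbours not to be settled. Ddit3 at 6.87, Atf3 at 2.19 and Slc7a11 at 0.154 were lowest. The value of Ddit3 is a lower limit in RNA-seq, since a second gene model inside it (ENSMUSG00000116429, chr10:127290829-127293753) had 0 counts in all RNA-seq libraries and 218 to 432 in TT-seq: reads in the shared exons were counted for neither model in RNA-seq and for both in TT-seq.

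The Zfp143 transcript itself does not report the loss of its protein. In DMSO it stood at 43.0 and 44.3 CPM in RNA-seq, and after 24 h of dTAG-V1 at 95.5 and 90.8 CPM, a log2 change of 1.09 ± 0.06 (SE). The pluripotency markers (Pou5f1, Sox2, Nanog, Esrrb, Zfp42 and Klf4) were read in every library, with none at 0, and their summed level was 4126 to 4200 CPM in DMSO and 2749 to 2771 CPM at 72 h. Summed markers of primitive endoderm were 5.88 to 7.06 CPM in DMSO and 14.8 to 15.4 CPM at 72 h, and those of feeder fibroblasts 2.48 to 2.78 and 2.80 to 3.89 CPM, with 2 of the 4 genes at 0 in both DMSO libraries and 1 of the 4 at 0 in both at 72 h. Whether these shifts had a part in the results below was not tested. Feeder cells are not named in the study's methods, which describe gelatin-coated plates. In these bulk samples, a change in the number of cells that express a gene cannot be told apart from a change in its RNA per cell.

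The first question was how early transcription of these genes moved once ZFP143 was degraded. In TT-seq a gene was called when edgeR's quasi-likelihood test gave a Benjamini-Hochberg adjusted p below 0.05 over all 17870 tested genes and a log2 change beyond 0.5. At 2 h and at 6 h 0 of the 10 genes were called, where 0.168% and 0.397% of all tested genes were called higher and 2.43% and 2.83% lower. At an unadjusted p below 0.05, 1 of the 10 passed at 2 h and 2 at 6 h, where 11.3% and 17.4% of all genes did. At 24 h 2 of 10, Atf5 and Slc7a11, were called higher and 0 lower, against 2.02% of all genes called higher and 4.09% lower. The median log2 change of the 10 genes was 0.32, 0.31 and 0.89 at 2, 6 and 24 h, beside 0.01 for all tested genes at each time.

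**Figure D1:**
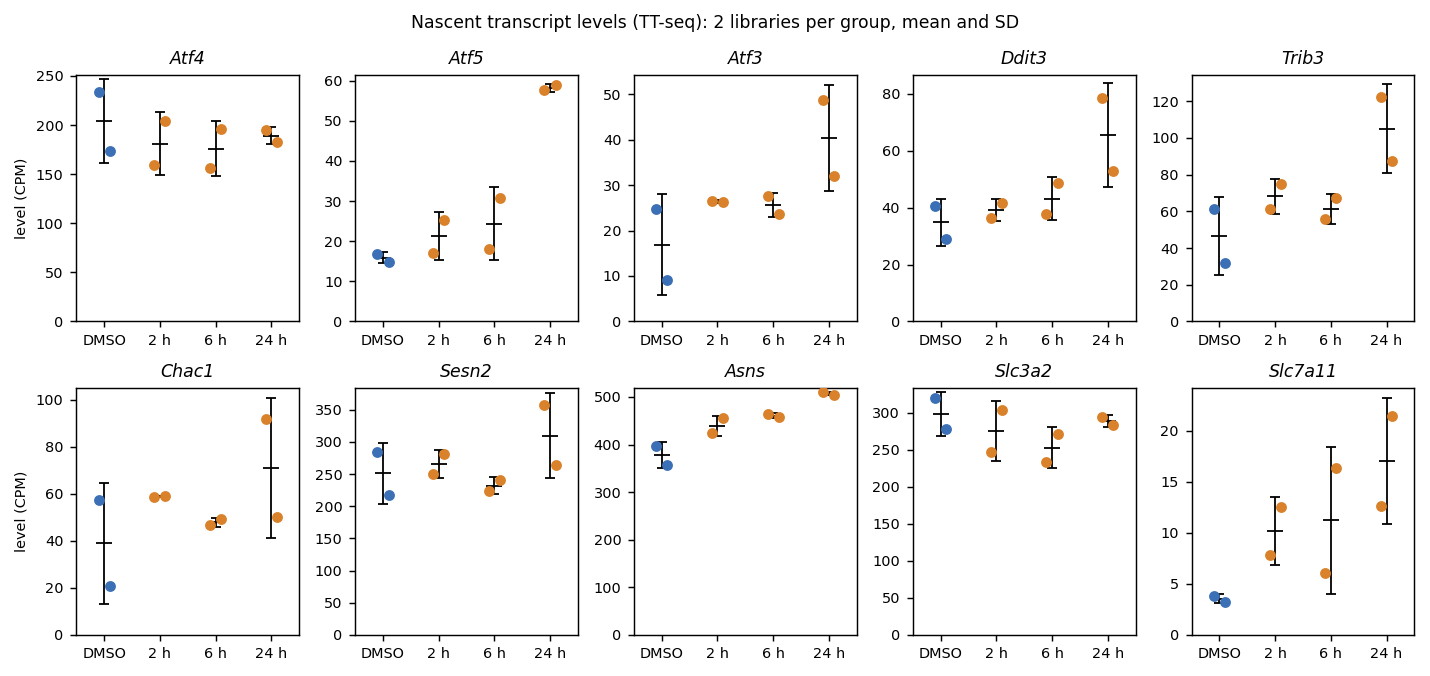
Nascent transcript levels by TT-seq, in CPM on a linear axis from 0, for each of the 10 genes in DMSO and after dTAG-V1 for 2, 6 or 24 h. Points are the 2 libraries of a group, the horizontal bar is their mean and the error bar their SD; Atf5 rises clear of DMSO at 24 h, where its libraries read 57.6 and 59.0 CPM, while the DMSO libraries of Atf3, Trib3 and Chac1 lie far apart.

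Slc7a11 (ENSMUSG00000027737, chr3:49892526-50443614, minus strand), which imports cystine in exchange for glutamate, had the greatest change in value at each time and the fewest reads. Its nascent level was 3.83 and 3.20 CPM in DMSO (37 and 42 reads), 7.81 and 12.5 CPM at 2 h, 6.08 and 16.3 CPM at 6 h, then 12.6 and 21.4 CPM at 24 h. All 6 treated libraries lay above both DMSO libraries, with replicate 2 the higher at each treated time. The log2 changes were 1.54 ± 0.49 at 2 h (adjusted p = 0.234), 1.67 ± 0.50 at 6 h (adjusted p = 0.128) and 2.28 ± 0.49 at 24 h (adjusted p = 0.0328, edgeR). The call at 24 h was lost without either DMSO library or without replicate 2 at 24 h, with adjusted p of 0.128, 0.121 and 0.116. DESeq2 called Slc7a11 already at 2 h (log2 change 1.55, adjusted p = 0.0208) and at 6 h (1.67, adjusted p = 0.00686). Several noncoding models and pseudogenes lie in its introns.

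Atf5 (ENSMUSG00000038539, chr7:44812256-44816658, minus strand), a transcription factor whose translation is regulated like that of Atf4, had the smallest adjusted p in nascent RNA. Its level was 16.9 and 14.9 CPM in DMSO, 17.1 and 25.4 CPM at 2 h, 18.0 and 30.8 CPM at 6 h, then 57.6 and 59.0 CPM at 24 h. The last pair was above all other libraries. The log2 change was 0.43 ± 0.27 at 2 h, 0.62 ± 0.27 at 6 h and 1.88 ± 0.27 at 24 h (adjusted p = 0.00614, edgeR), the last a 3.67-fold increase. The call was lost in the test against 1.5-fold at an adjusted p below 0.01 (adjusted p = 0.0243). The 5′ end of Atf5 overlaps Nup62 and Il4i1 by 571 and 272 bp on the opposite strand, and TT-seq reads were counted by strand.

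Atf4 (ENSMUSG00000042406, chr15:80255184-80257541, plus strand), the central transcription factor of the pathway, was not called in nascent RNA. It read 234 and 174 CPM in DMSO, 159 and 204 CPM at 2 h, 156 and 196 CPM at 6 h, then 195 and 183 CPM at 24 h. The groups overlapped at every time, and the log2 changes were -0.17 ± 0.19, -0.22 ± 0.19 and -0.11 ± 0.19.

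Ddit3, Trib3, Atf3 and Chac1, the stress effectors, were higher in value at 24 h without passing the threshold in the edgeR fit used. In this order their log2 changes were 0.17 ± 0.24, 0.56 ± 0.29, 0.66 ± 0.39 and 0.60 ± 0.42 at 2 h. At 6 h they were 0.32 ± 0.24, 0.41 ± 0.29, 0.62 ± 0.39 and 0.31 ± 0.42. Without the filter on low counts Trib3 and Chac1 were called at 2 h (adjusted p = 0.041 and 0.0308, edgeR). Ddit3 (ENSMUSG00000025408, chr10:127290774-127296288, plus strand), whose product CHOP is a transcription factor linked to cell death, read 40.6 and 28.9 CPM in DMSO and 78.6 and 52.7 CPM at 24 h, a log2 change of 0.92 ± 0.24 (adjusted p = 0.0591, edgeR). Trib3 (ENSMUSG00000032715, chr2:152337422-152344032, minus strand), a pseudokinase that is a target of ATF4 and CHOP, read 61.4 and 31.6 CPM and then 122 and 87.6 CPM, a log2 change of 1.18 ± 0.29 (adjusted p = 0.0519). Atf3 (ENSMUSG00000026628, chr1:191170296-191218039, minus strand), a stress-induced transcription factor, read 24.7 and 9.07 CPM and then 48.6 and 32.1 CPM, with a change of 1.27 ± 0.39 (adjusted p = 0.104). In these genes both libraries at 24 h were above both DMSO libraries, and DESeq2 called all of them, with adjusted p of 0.00583 for Ddit3, 0.000511 for Trib3 and 0.00622 for Atf3.

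Chac1 (ENSMUSG00000027313, chr2:119351229-119354381, plus strand), an enzyme that degrades glutathione, read 57.2 and 20.9 CPM in DMSO and 92.0 and 50 CPM at 24 h, so that its groups overlapped. In Atf3, Trib3 and Chac1 the DMSO replicate 1 was the higher by far, and without it their log2 changes at 24 h became 2.15, 1.72 and 1.76, with adjusted p of 0.0153, 0.0181 and 0.0464 in edgeR. With all libraries in the fit used these were not called, while Trib3 was called under DESeq2 size factors (adjusted p = 0.0485) and library size alone (adjusted p = 0.0497), and Atf3, Trib3 and Chac1 without the filter on low counts. Ddit3 was called without that filter as well (0.90, adjusted p = 9.12e-05) and without replicate 2 at 24 h (1.19, adjusted p = 0.0363).

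Sesn2, Asns and Slc3a2 had high nascent levels and small differences. Asns (ENSMUSG00000029752, chr6:7675169-7693254, minus strand) read 397 and 358 CPM in DMSO, 424 and 455 CPM at 2 h, 464 and 457 CPM at 6 h, then 510 and 505 CPM at 24 h. Every treated library of Asns was above both DMSO libraries, with log2 changes of 0.22 ± 0.11, 0.29 ± 0.11 and 0.43 ± 0.11. These passed neither the size nor the adjusted p required for a call (adjusted p = 0.532, 0.234 and 0.0626, edgeR). Sesn2 (ENSMUSG00000028893, chr4:132492032-132510501, minus strand), a leucine sensor that restrains mTORC1, ranged from 218 to 357 CPM over the 8 libraries. Slc3a2 (ENSMUSG00000010095, chr19:8706882-8723369, minus strand), the heavy chain that partners Slc7a11, ranged from 233 to 320 CPM, and its change at 24 h was -0.05 ± 0.14.

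Counted by libraries, 5, 3 and 6 of the 10 genes had both treated libraries above both DMSO libraries at 2, 6 and 24 h, where 18.6%, 23.4% and 23.9% of all tested genes did. From 2 to 6 h and from 6 to 24 h 0 of the 10 genes were called, and 0% of all genes were called in either direction in either step. At an unadjusted p below 0.05, 0 of the 10 passed from 2 to 6 h and 4 passed from 6 to 24 h, namely Atf5, Ddit3, Trib3 and Sesn2, where 1.51% and 10.8% of all genes did. In value all 10 were higher at 24 h than at 6 h, and the step of Atf5 was 1.26 ± 0.27 (adjusted p = 0.198, edgeR).

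The RNA-seq time course asked how the same genes stood in steady-state mRNA over the following days. Here the spread between replicates was far smaller, with a biological coefficient of variation of 3.65% against 17.2% in TT-seq. A gene was called when edgeR's test against a 1.5-fold change gave an adjusted p below 0.01 over 13925 genes. At 24 h 5 of the 10 were called higher, Atf5, Atf3, Ddit3, Trib3 and Slc7a11, where 2.32% of all genes were. At 48 h Chac1 and Slc3a2 joined them to make 7 of 10, against 10.5%, and at 72 h 6 of 10 were called, the 5 of 24 h with Sesn2, against 13.7%. No member was called lower at any time, where 3.41%, 7.71% and 12.0% of all genes were. The median log2 change of the 10 was 0.96, 1.23 and 1.25, beside 0.02, 0.01 and 0.02 for all genes.

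**Figure D2:**
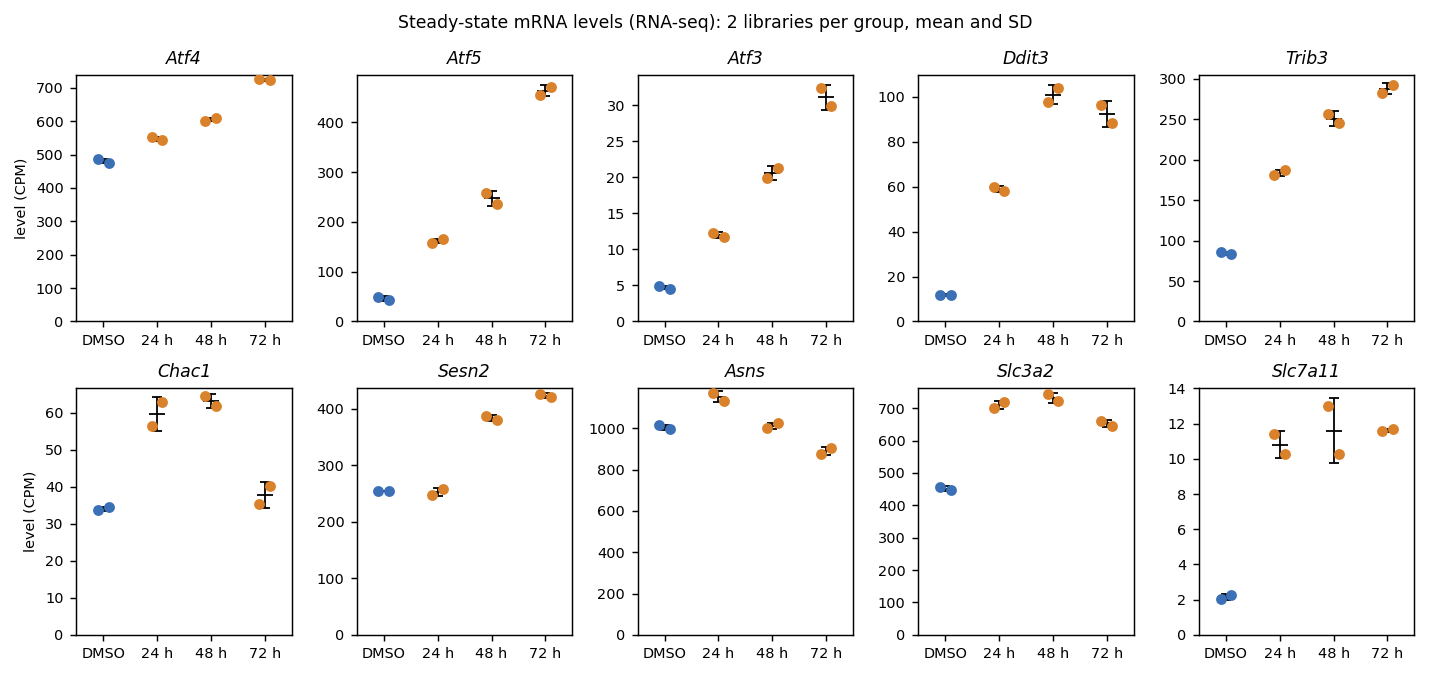
Steady-state mRNA levels by RNA-seq, in CPM on a linear axis from 0, in DMSO and after dTAG-V1 for 24, 48 or 72 h. Points are the 2 libraries of a group with mean and SD; Atf5, Atf3 and Trib3 have their highest libraries at 72 h, Chac1 is high at 24 and 48 h and back near DMSO at 72 h, and Asns stays between 877 and 1173 CPM.

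Of the transcription factors, Atf5 and Atf3 were called higher at all 3 times. Atf5 had the largest change of the 10 at 72 h, from 49.0 and 42.3 CPM in DMSO to 158 and 165 at 24 h, then 258 and 235 at 48 h, then 455 and 471 at 72 h. No group overlapped the next, and the log2 changes were 1.83 ± 0.06, 2.44 ± 0.06 and 3.35 ± 0.06, a 10.2-fold rise by 72 h (adjusted p = 2.49e-24, edgeR). Atf3 was low throughout, with 4.87 and 4.56 CPM in DMSO and 12.3 and 11.7, 19.9 and 21.3, and 32.4 and 29.9 CPM at 24, 48 and 72 h. Its changes were 1.35 ± 0.15, 2.13 ± 0.13 and 2.72 ± 0.12.

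Ddit3 rose and then levelled off. The level of Ddit3 was 11.6 and 12 CPM in DMSO, then 59.7 and 58.0 at 24 h, 97.8 and 104 at 48 h, then 96.4 and 88.2 at 72 h, with log2 changes of 2.32 ± 0.09, 3.09 ± 0.08 and 2.96 ± 0.08. The libraries at 72 h lay between those of 24 h and 48 h. Under library size alone the step from 24 to 48 h was called, with a log2 change of 0.84 (adjusted p = 0.00138), and under the normalization used it was 0.77 ± 0.06 (adjusted p = 0.0164).

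Atf4 mRNA was higher in value without being called. It read 486 and 476 CPM in DMSO, 552 and 544 at 24 h, 601 and 609 at 48 h, then 726 and 722 at 72 h. The groups were separate at each time and in this order, with log2 changes of 0.19 ± 0.04, 0.33 ± 0.04 and 0.59 ± 0.04. The last equals the 1.5-fold margin of the test (adjusted p = 0.521, edgeR), and scaled by library size alone it was 0.81 and was called (adjusted p = 4.32e-06). Under the TT-seq rule, a test against no change, it was called as well (adjusted p = 8.28e-14).

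Trib3 and Chac1 followed different courses. Trib3 read 85.6 and 83.2 CPM in DMSO, 181 and 187 at 24 h, 257 and 245 at 48 h, then 283 and 293 at 72 h, with log2 changes of 1.13 ± 0.05, 1.57 ± 0.05 and 1.77 ± 0.05. Chac1 read 33.7 and 34.4 CPM in DMSO, 56.3 and 62.8 at 24 h, 64.5 and 61.8 at 48 h, then 35.3 and 40.2 at 72 h. It was thus high at 24 and 48 h, with changes of 0.80 ± 0.08 (adjusted p = 0.0172) and 0.89 ± 0.08 (adjusted p = 3.40e-04, edgeR; 0.0394 with DESeq2), and at 72 h the change was 0.16 ± 0.08.

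The drop of Chac1 from 48 to 72 h was -0.73 ± 0.08 and did not pass the test against 1.5-fold (adjusted p = 0.191). Under the rule used for TT-seq, a test against no change with a log2 size beyond 0.5, it was called lower (adjusted p = 1.36e-08). No library at 72 h reached the lowest library of 24 h or 48 h.

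Sesn2 was called only at 72 h. It stood at 254 and 254 CPM in DMSO and at 248 and 257 CPM at 24 h, overlapping, then at 387 and 380 CPM at 48 h, then 426 and 420 CPM at 72 h. The log2 changes were -0.01 ± 0.04, 0.59 ± 0.04 (adjusted p = 0.583) and 0.74 ± 0.04 (adjusted p = 5.08e-04, edgeR). With library size alone it was also called at 48 h (0.79, adjusted p = 4.36e-05). The call at 72 h was lost without replicate 1 of that time (0.71, adjusted p = 0.014), with DESeq2 (0.72, adjusted p = 0.0242) and without the filter on low counts (0.70, adjusted p = 0.015). The noncoding model Gm12981 lies inside Sesn2 on the same strand over 6089 bp.

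Of the amino acid genes, Slc7a11 was called at all 3 times, Slc3a2 at 48 h and Asns at none. Slc7a11 read 2.02 and 2.28 CPM in DMSO (22 and 32 reads), 11.4 and 10.3 at 24 h, 13.0 and 10.3 at 48 h, then 11.6 and 11.7 at 72 h. It reached its level by 24 h, with log2 changes of 2.32 ± 0.20, 2.43 ± 0.19 and 2.42 ± 0.19 and overlapping treated groups. Slc3a2 read 456 and 446 CPM in DMSO, 701 and 718 at 24 h, 743 and 721 at 48 h, then 661 and 645 at 72 h.

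All 6 treated libraries of Slc3a2 were above DMSO, with log2 changes of 0.65 ± 0.04 (adjusted p = 0.138), 0.70 ± 0.04 (adjusted p = 0.00505) and 0.53 ± 0.04 (adjusted p = 1). The call at 48 h was lost without DMSO replicate 2 or either library of 48 h, with adjusted p of 0.0292, 0.0765 and 0.0135, and with DESeq2 (adjusted p = 0.101). Asns read 1015 and 997 CPM in DMSO, 1173 and 1134 at 24 h, 1004 and 1025 at 48 h, then 877 and 906 at 72 h. Its libraries were above DMSO at 24 h and below at 72 h, with log2 changes of 0.20 ± 0.04, 0.01 ± 0.04 and -0.17 ± 0.04. Under library size alone the median gene stood at 0.15, 0.21 and 0.23 at these times, in place of 0.02, 0.01 and 0.02, and Slc3a2 was called at 24 and 72 h and Chac1 at 24 h. These calls were also made under the TT-seq rule, as was Sesn2 at 48 h.

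Between consecutive times few members passed. From 24 to 48 h 0 of 10 were called where 3.23% of all genes were called in either direction, and at an unadjusted p below 0.05 2 passed, Ddit3 and Atf3, by the edgeR test against 1.5-fold, as did 9.64% of all genes. From 48 to 72 h 1 of 10, Atf5, was called higher with a log2 change of 0.91 ± 0.05 (adjusted p = 9.46e-06, edgeR), against 1.71% of all genes in either direction.

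**Figure D3:**
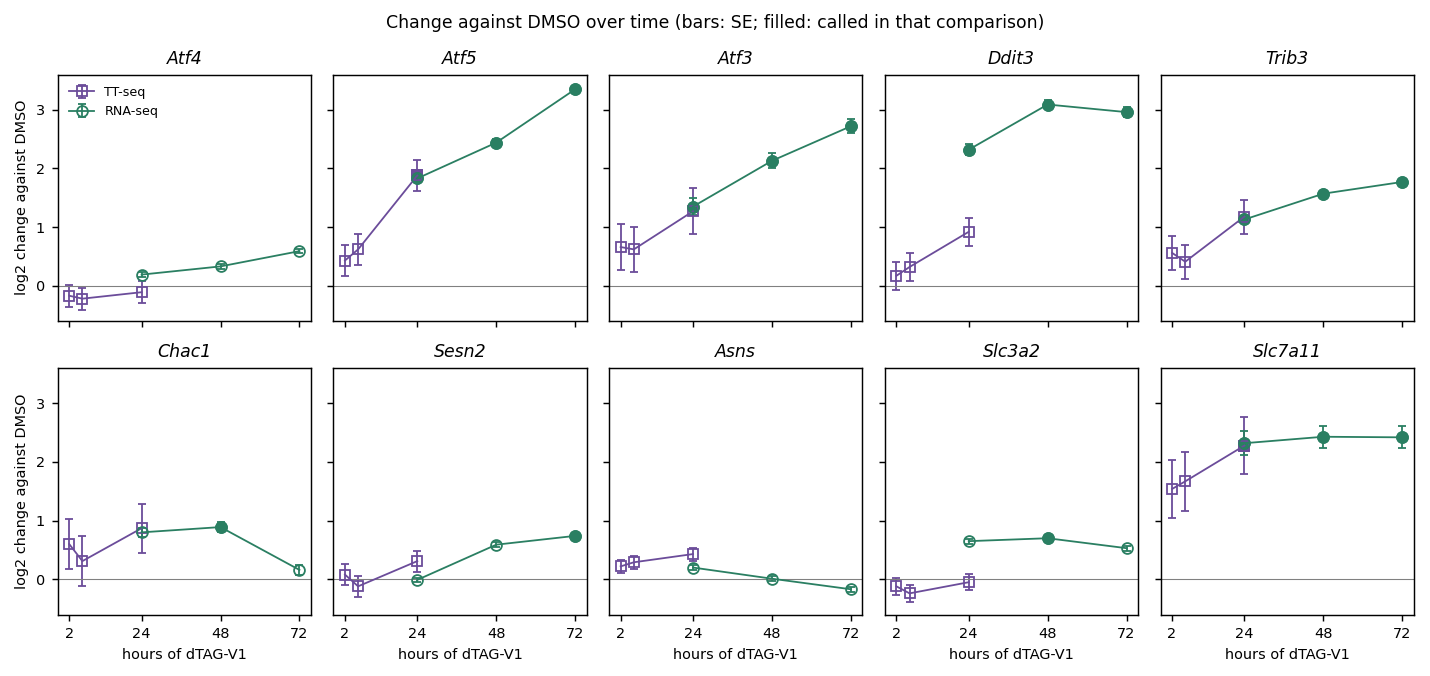
Log2 change against the DMSO libraries of the same table, by hours of dTAG-V1, for nascent RNA (TT-seq, squares) and steady-state mRNA (RNA-seq, circles); bars are SE and filled symbols were called in that comparison. At 24 h the 2 assays lie close for Atf5 (1.88 and 1.83), Atf3, Trib3, Chac1 and Slc7a11, and apart for Ddit3 (0.92 and 2.32) and Slc3a2 (-0.05 and 0.65).

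At 24 h the change in nascent RNA and that in steady-state mRNA can be set side by side, from separate libraries with separate controls and with no test of the difference between them. They were 1.88 and 1.83 for Atf5, 2.28 and 2.32 for Slc7a11, 1.18 and 1.13 for Trib3, 1.27 and 1.35 for Atf3 and 0.87 and 0.80 for Chac1. For Ddit3 they were 0.92 and 2.32, for Slc3a2 -0.05 and 0.65, for Atf4 -0.11 and 0.19, for Sesn2 0.31 and -0.01 and for Asns 0.43 and 0.20. The counting of the second Ddit3 model differs between the assays as given above, and TT-seq counts whole genes with introns where RNA-seq counts exons.

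The retinoic acid experiment asked whether the response holds in cells that start to differentiate. Before RA, 6 of the 10 genes were called higher with dTAG-V1 and 0 lower, the 5 of the time course at 24 h and Chac1, against 2.74% of all 15915 genes called higher and 3.66% lower. After RA 6 of 10 were called higher and 0 lower, against 9.10% and 7.36%, with Atf4 and Sesn2 in place of Atf3 and Chac1. The median log2 change of the 10 was 1.18 before and 0.91 after, beside 0.06 and 0.00 for all genes. The difference between both effects was tested as an interaction, called at an adjusted p below 0.05 and a log2 size beyond 0.5. It was larger after RA for 2 members (Atf4 and Sesn2) and smaller for 3 (Atf3, Ddit3 and Chac1), where 13.7% and 18.0% of all genes were called in those directions.

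**Figure D4:**
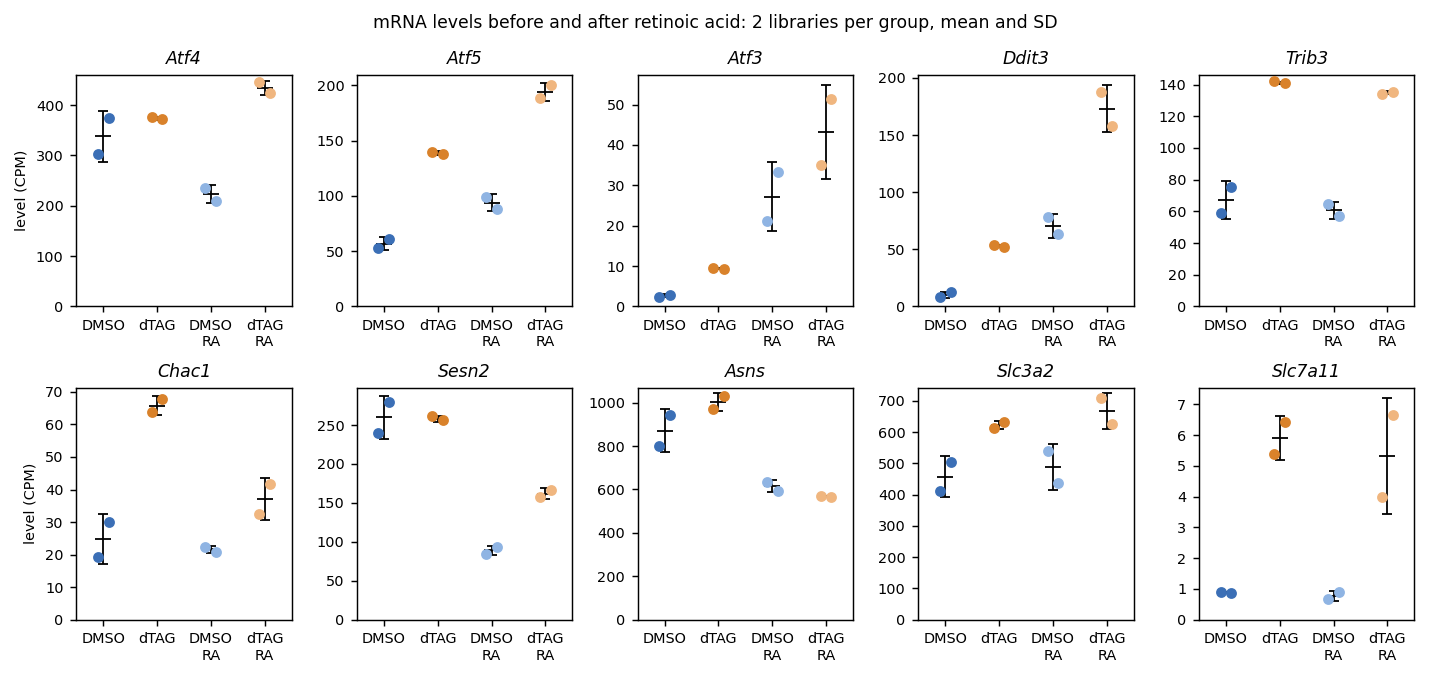
mRNA levels in the RA experiment, in CPM on a linear axis from 0, with DMSO or dTAG-V1 before RA and after 24 h of RA; points are the 2 libraries of a group with mean and SD. Ddit3 and Atf3 are higher after RA in both treatments, Sesn2 is lower after RA in both, and Atf4 with DMSO after RA (236 and 210 CPM) is the lowest group of its panel.

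Atf4 and Sesn2 were called after RA and not before it. Atf4 read 302 and 374 CPM with DMSO and 376 and 372 with dTAG-V1 before RA, overlapping, and 236 and 210 CPM with DMSO and 445 and 424 with dTAG-V1 after RA. The log2 changes were 0.14 ± 0.09 and 0.96 ± 0.09 (adjusted p = 2.49e-04), and their difference was 0.81 ± 0.12 (adjusted p = 1.68e-05, edgeR). In the test against 1.5-fold that difference had an adjusted p of 0.069. RA moved Atf4 by -0.60 ± 0.09 in DMSO cells (adjusted p = 0.365) and by 0.22 ± 0.09 in depleted cells.

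Sesn2 read 240 and 279 CPM with DMSO and 261 and 256 with dTAG-V1 before RA, and 84.9 and 92.9 CPM with DMSO and 157 and 167 with dTAG-V1 after RA. Before RA the groups overlapped (-0.01 ± 0.08), and after RA the change was 0.87 ± 0.08 (adjusted p = 0.00132), a difference of 0.88 ± 0.11 (adjusted p = 2.04e-06, edgeR; 0.0165 against 1.5-fold, which is not a call at 0.01). Sesn2 was called lower with RA in DMSO cells, by -1.55 ± 0.08, and in depleted cells the RA effect was -0.67 ± 0.08 (adjusted p = 0.0896). The call of Sesn2 after RA was lost without DMSO replicate 1 after RA (0.81, adjusted p = 0.0225) or dTAG-V1 replicate 2 after RA (0.85, adjusted p = 0.0105).

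Ddit3 and Atf3 were called higher after RA in both treatments, and their change with dTAG-V1 was smaller after RA. Ddit3 read 8.08 and 12.2 CPM with DMSO and 53.8 and 52.4 with dTAG-V1 before RA, and 78.3 and 63.4 with DMSO and 188 and 158 with dTAG-V1 after RA. The dTAG-V1 effect was 2.40 ± 0.14 before and 1.28 ± 0.11 after, a difference of -1.12 ± 0.18 (adjusted p = 4.00e-05, edgeR). The RA effect was 2.82 ± 0.14 in DMSO cells and 1.70 ± 0.11 in depleted cells, and the call after RA was lost with DESeq2 (1.32, adjusted p = 0.0191). DMSO cells after RA held more Ddit3 mRNA than depleted cells before it.

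Atf3 read 2.36 and 2.87 CPM with DMSO and 9.40 and 9.37 with dTAG-V1 before RA, and 21.2 and 33.3 with DMSO and 35.0 and 51.4 with dTAG-V1 after RA. Its effects were 1.85 ± 0.26 (adjusted p = 3.10e-04) and 0.69 ± 0.16 (adjusted p = 0.345), a difference of -1.16 ± 0.32 (adjusted p = 0.00571, edgeR). After RA the ranges of its groups were close, and without DMSO replicate 2 after RA the change was 1.03 and was called (adjusted p = 0.00932). The call before RA was lost without DMSO replicate 1 (1.71, adjusted p = 0.0117) and with DESeq2 (1.82, adjusted p = 0.0135). The difference had an adjusted p of 0.0528 with DESeq2 and 0.0845 in the test against 1.5-fold.

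Chac1 read 19.4 and 30.1 CPM with DMSO and 63.7 and 67.8 with dTAG-V1 before RA, and 22.3 and 20.8 with DMSO and 32.6 and 41.6 with dTAG-V1 after RA. The treated libraries were above the controls in both states. The changes were 1.42 ± 0.14 (adjusted p = 1.53e-05; 0.0308 with DESeq2) and 0.78 ± 0.14 (adjusted p = 0.122; called by library size alone with 0.99), and their difference was -0.64 ± 0.20 (adjusted p = 0.0133, edgeR). That difference was not called without DMSO replicate 1 before RA (-0.35, adjusted p = 0.0907), without dTAG-V1 replicate 2 before RA (-0.59, adjusted p = 0.0557), without dTAG-V1 replicate 1 after RA (-0.41, adjusted p = 0.111) or with DESeq2 (-0.57, adjusted p = 0.204), and had an adjusted p of 0.565 against 1.5-fold.

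For Atf5, Trib3, Slc7a11 and Slc3a2 the difference between the states was not called. Atf5 read 52.6 and 61.3 CPM with DMSO and 140 and 138 with dTAG-V1 before RA, and 99.3 and 88.4 with DMSO and 189 and 200 with dTAG-V1 after RA, with changes of 1.29 ± 0.08 and 1.05 ± 0.08 and a difference of -0.24 ± 0.11 (adjusted p = 0.0921). Trib3 read 58.9 and 75.5 CPM with DMSO and 142 and 141 with dTAG-V1 before RA, and 64.5 and 56.9 with DMSO and 134 and 135 with dTAG-V1 after RA, a difference in effect of 0.07 ± 0.13. Groups of these genes did not overlap between DMSO and dTAG-V1 in either state.

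Slc7a11 read 0.892 and 0.860 CPM with DMSO and 5.40 and 6.42 with dTAG-V1 before RA, and 0.662 and 0.887 with DMSO and 3.98 and 6.66 with dTAG-V1 after RA, from 13 to 17 reads in the DMSO libraries. The changes were 2.75 ± 0.30 and 2.81 ± 0.31, the largest of the 10 in both states, and their difference was 0.06 ± 0.48, the least precise of the 10. Slc3a2 read 412 and 505 CPM with DMSO and 613 and 634 with dTAG-V1 before RA, and 541 and 436 with DMSO and 708 and 626 with dTAG-V1 after RA. Its changes of 0.44 ± 0.10 and 0.45 ± 0.10 were not called.

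Asns was called in neither state. It read 802 and 941 CPM with DMSO and 972 and 1032 with dTAG-V1 before RA, and 634 and 595 with DMSO and 570 and 567 with dTAG-V1 after RA. The changes with dTAG-V1 were 0.20 ± 0.08 and -0.11 ± 0.08, and the difference of -0.32 ± 0.11 had an adjusted p of 0.0252 in edgeR but was under the size required.

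For the RA effect itself, 2 members (Atf3 and Ddit3) were called higher in DMSO cells and 1 (Sesn2) lower, against 25.8% and 18.1% of all genes. In depleted cells the same 2 were called higher and 1 (Asns) lower, against 25.0% and 18.5%. Asns fell by 0.82 on the log2 scale there (SE 0.08, adjusted p = 0.00183, edgeR), and the call was lost without dTAG-V1 replicate 2 before RA or either dTAG-V1 library after RA, with adjusted p of 0.028, 0.0102 and 0.0116, with DESeq2 (adjusted p = 0.0475) and under library size alone (-0.43, adjusted p = 1), under which the median gene stood at 0.39 in this comparison, in place of 0.00, and at 0.35 in DMSO cells, in place of 0.03. Under that scaling Atf5 was called higher with RA, by 1.05 in DMSO cells and 0.88 in depleted cells. In DMSO cells its RA effect of 0.73 ± 0.08 (adjusted p = 0.032, edgeR) was also called without DMSO replicate 2 before RA (0.84, adjusted p = 0.00304) or after RA (0.80, adjusted p = 0.00953).

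Marker levels also differed between the RA groups. The summed pluripotency markers were 4956 to 5239 CPM with DMSO and 4425 to 4435 with dTAG-V1 before RA, and 587 to 881 with DMSO and 1048 to 1264 with dTAG-V1 after RA. Summed primitive endoderm markers were 4.46 to 5.16 and 7.90 to 10.8 CPM before RA and 31.8 to 34.2 and 48.8 to 49.3 CPM after it. Summed feeder fibroblast markers were 3.10 to 4.24 and 3.90 to 4.03 CPM before RA and 6.58 to 10.3 and 25.9 to 26.2 CPM after it, with none of the 4 genes at 0 after RA. The part of these shifts in the results of the 10 genes was not tested. As given above, the study's methods name no feeder cells.

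**Figure D5:**
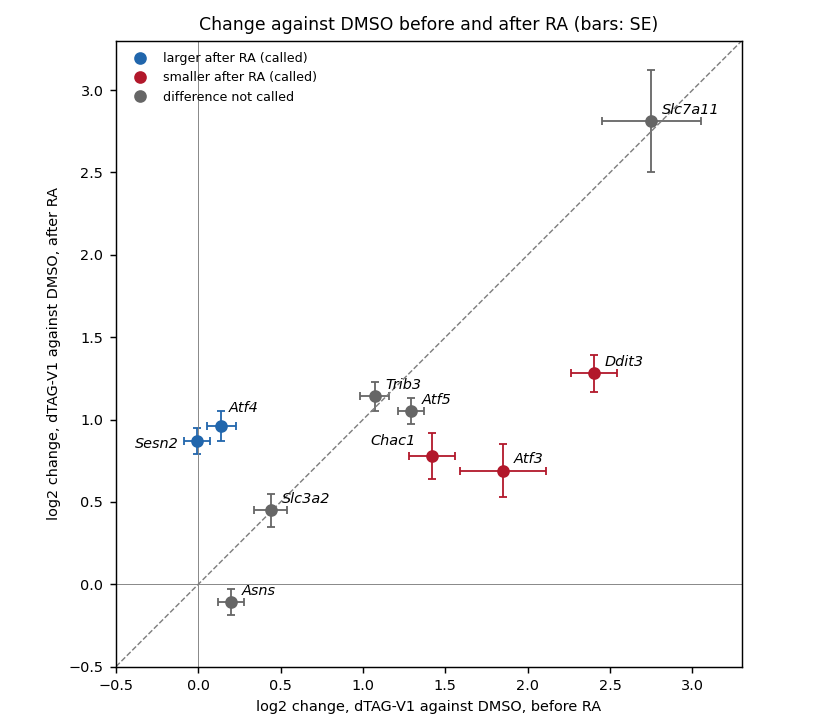
Log2 change of dTAG-V1 against DMSO before RA (horizontal) and after RA (vertical) for the 10 genes, with SE bars and the line of equal change. Atf4 and Sesn2 lie above the line (0.14 and 0.96, -0.01 and 0.87), Ddit3, Atf3 and Chac1 below it, and Slc7a11 on it at 2.75 and 2.81.

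Other genes of the pathway and of related stress responses were taken as lists, whose counts stand against the shares of all genes. In RNA-seq 2.32%, 10.5% and 13.7% of all genes were called higher at 24, 48 and 72 h and 3.41%, 7.71% and 12.0% lower. In TT-seq 0.168%, 0.397% and 2.02% were called higher at 2, 6 and 24 h and 2.43%, 2.83% and 4.09% lower. With dTAG-V1 in the RA experiment 2.74% were called higher and 3.66% lower before RA, and 9.10% and 7.36% after it.

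The first list held ATF4 targets apart from the 10. In TT-seq 0 of 31 tested were called at 2 h and at 6 h, and 6 were called higher and 0 lower at 24 h. In RNA-seq 6, 12 and 13 of 31 were called higher at 24, 48 and 72 h, and 0, 0 and 2 lower, with medians of 0.49, 0.48 and 0.32. By library size alone 11, 14 and 13 were called higher. At 72 h the greatest rises were those of Cebpb, a C/EBP partner of ATF4, with a log2 change of 3.66 ± 0.24, and of Slc1a4, a transporter of neutral amino acids, with 2.37 ± 0.07. The members called lower were Pycr1, an enzyme of proline synthesis, with -1.20 ± 0.07, and Psat1, an enzyme of serine synthesis, with -0.83 ± 0.04. In the RA experiment 7 of 32 were called higher before RA and 6 after, and 0 lower in either.

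Another list held genes of eIF2 signalling. Most of them phosphorylate, dephosphorylate or exchange eIF2 or encode a subunit of it, and Gcn1l1, Impact, Oma1 and Dele1 were included as well. Of 16 tested, 0 were called at 24 h in RNA-seq, 1 higher and 1 lower at 48 h and 2 higher and 1 lower at 72 h. The members of the list called at 72 h were Ppp1r15a, the inducible eIF2 phosphatase subunit (1.17 ± 0.06), Impact, an inhibitor of the kinase GCN2 (1.03 ± 0.04), and Eif2b5, the catalytic subunit of the eIF2 exchange factor (-0.96 ± 0.05). In TT-seq 0 were called at 2 h and 6 h and 1 lower at 24 h, and in the RA experiment 0 before RA and 2 higher after it, or 4 by library size alone.

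Of the ER unfolded protein response, 0, 2 and 4 of 17 genes were called higher in RNA-seq at 24, 48 and 72 h and 0 lower, counts not far from the shares of all genes. At 72 h Dnajb9, an ER cochaperone, changed by 1.11 ± 0.10 and Syvn1, an ER ubiquitin ligase, by 1.07 ± 0.06. With library size alone 4 were called at 48 h and 9 at 72 h. In TT-seq 1 was higher at 6 h, when the median was 0.38, and 3 were lower at 24 h, when the median was -0.40. Of the mitochondrial unfolded protein response 0, 1 and 0 of 8 genes were called higher at 24, 48 and 72 h.

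Slc7a11 is also a known target of the antioxidant factor NRF2. Of 11 other NRF2 targets tested, 5 were called lower at 48 h and at 72 h and 1 higher at both times. The gene called higher at 72 h was Hmox1, which degrades heme, with 1.93 ± 0.05. Gsr, glutathione reductase, changed by -1.76 ± 0.04 and Nqo1, a quinone reductase, by -1.67 ± 0.08 at that time. Of p53 targets, a group to which Sesn2 also belongs, 1, 10 and 8 of 15 were called higher at 24, 48 and 72 h. At 72 h Fas, a death receptor, changed by 4.50 ± 0.61 and Plk2, a stress kinase, by 2.85 ± 0.06.

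With dTAG-V1 0 of the 15 p53 targets were called higher before RA and 7 after it, where the share of all genes was 2.74% and 9.10%. Of the 8 immediate early genes tested, among which Atf3 is often counted, 2 were called higher at 72 h, Fos with 2.05 ± 0.30 and Jun with 1.89 ± 0.14, and 1 was lower at 24 h. In TT-seq, 1 NRF2 target was called lower at 24 h, 1 immediate early gene lower at 6 h, 1 gene of the mitochondrial list higher and 1 lower at 24 h, and 0 p53 targets at any time. With dTAG-V1 before RA, 2 immediate early genes were called lower (1 by library size alone) and 0 higher, and 0 NRF2 targets were called. After RA, 1 NRF2 target was called higher and 2 lower, 1 immediate early gene higher and 1 lower, and 0 genes of either unfolded protein response.

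Across all 24 libraries, each table centered on its DMSO libraries without RA, the genes whose log2 CPM followed Ddit3 most closely were Rhbdd1, Polb, Mef2b, Mcfd2 and Usp11, with Pearson r from 0.96 to 0.97, among 8827 genes with a mean count of at least 100 in each table. Of the other members, Atf3 had an r of 0.91 and rank 57, Slc3a2 0.82, Atf5 0.74, Trib3 0.60, Atf4 0.46, Chac1 0.28, Sesn2 -0.18 and Asns -0.57. Slc7a11 had too few reads for this comparison. Libraries of a table share the DMSO libraries on which they were centered, so these values are a description.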

How the data were processed

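TT-seq, RNA-seq and ChIP-seq were made by the authors from the ZFP143-FKBP mESCs. Per the study's methods, reads were mapped to mm10 with STAR. The TT-seq counts deposited are HTSeq counts per whole gene and strand after removal of duplicates, with reads in overlapping genes counted for each, and the RNA-seq counts deposited are STAR gene counts, which drop such reads. The strand setting used to select the RNA-seq counts is not given in the sources used here. The authors' ZFP143 peaks carry a fold enrichment (a ratio over input) and a -log10 q-value, from 1 library per condition. The CTCF peaks, which the authors pooled over DMSO and dTAG-V1 cells, are not reported here.

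Counts were read as deposited. Of 55401 gene identifiers, 55141 matched GENCODE without their version. Genes with over 10 counts in 4 of 8 libraries were kept, scaled by TMM and fitted per table over its 4 groups of 2 with edgeR 4.0.16 (R 4.3.3). TT-seq and the interaction used the quasi-likelihood test, other contrasts the test against 1.5-fold (glmTreat). CPM are counts divided by the TMM-scaled library total, ± is the SE of a log2 change, and adjusted p are Benjamini-Hochberg over all tested genes. The methods give 2 biological replicates for TT-seq and for RNA-seq, without saying what separated them. With 2 libraries per group, no exact permutation test could pass a threshold, so none was run. Alternatives were DESeq2 1.42.0, other scalings, no filter, a replicate block, each rule in place of the other and leaving out each library. The edgeR steps were tested on simulated counts, in the first comparison of each table and without the filter, and DESeq2 was not tested in this way. Lists came from general knowledge. All 10 genes were tested in every comparison, and not every value is printed. At most 2 genes per list and direction are named, chosen by size at 72 h. The members and lists were chosen with earlier results of these data known. Promoter and genome sequences are RefSeq (GRCm38.p6). Hi-C and 4C data were not used here.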

Additional observations from a re-analysis of the deposited data

Results flagged for a closer look

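The effect of dTAG-V1 differed before and after RA for 5 of the 10 genes by the test of the difference itself, the interaction term in edgeR, where 13.7% of all genes were called larger after RA and 18.0% smaller. In the test against 1.5-fold at an adjusted p below 0.01, only Ddit3 of the 5 was called. The log2 effect after RA minus that before RA was 0.81 for Atf4 and 0.88 for Sesn2. It was -1.16 for Atf3, -1.12 for Ddit3 and -0.64 for Chac1. The groups after RA had been treated for 48 h against 24 h before it and were in another medium, which cannot be told apart from RA. In the RNA-seq time course without RA, the log2 change at 48 h minus that at 24 h can be read beside these, and was 0.14 for Atf4, 0.60 for Sesn2, 0.78 for Atf3, 0.77 for Ddit3 and 0.09 for Chac1. The SE of the last was 0.07, and the values of the separate experiments were not tested against each other.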

How the results depend on the processing

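The values below count members called, out of 10. In TT-seq at 2 h 3 were called higher without the filter on low counts, and 1 with DESeq2 and with the replicate block. At 6 h 1 was called under each of these. At 24 h, where 2 were called, 6 were without the filter, 5 with DESeq2, 5 with the replicate block and 0 under the RNA-seq rule, and from 6 to 24 h 2 were called without the filter and 1 with DESeq2 and with the block. Leaving out each library in turn gave 0 at 2 h, 0 at 6 h and 1 to 4 at 24 h, the most without DMSO replicate 1. Leaving out a library leaves its group with 1, which is then assumed to vary like the other groups. The replicate numbers pair only 2 libraries per group. Deviations of same-numbered libraries correlated by 0.193 to 0.631 in TT-seq and by -0.0986 to 0.125 in the other tables, and with the block Slc7a11 was called at 2 h (adjusted p = 0.0365) and 6 h (0.0231) and Ddit3 (0.0245), Trib3 (0.0182) and Atf3 (0.0148) at 24 h. It moved no count outside TT-seq by over 1.5 times.

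In RNA-seq the step from 24 to 48 h gave 1 called higher with library size alone and 4 under the TT-seq rule, and that from 48 to 72 h 2 higher and 1 lower under that rule. Leaving out libraries gave 5 to 6, 6 to 7 and 5 to 6 called higher at 24, 48 and 72 h. In the RA experiment the RA effect in DMSO cells gave 3 lower under the TT-seq rule. In depleted cells it gave 0 lower with library size alone and with DESeq2, 2 without the filter and 3 under the TT-seq rule. The interaction gave 0 higher and 1 lower under the RNA-seq rule and 1 lower with DESeq2. Leaving out libraries gave 5 to 6 before RA, 5 to 7 after RA, 2 to 3 higher for RA in DMSO cells, 0 to 1 lower for RA in depleted cells and 2 to 3 lower for the interaction. A ZFP143 peak stood at 2 promoters with its centre within 1000 bp. The cause of these shifts was not tested. No called change reversed its sign under any alternative. With library size alone, higher calls made up 56.2% to 78.2% of all calls in the RNA-seq comparisons with DMSO, the dTAG-V1 effects before and after RA and the RA effects, where TMM gave 40.5% to 58.8%. With 2 libraries per group and 13 to 42 reads in its control libraries, Slc7a11 is the least precise member.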
